A study of Mus musculus with 62 samples.

Results

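The muscarinic and nicotinic acetylcholine receptors and the enzymes of acetylcholine turnover were described here by 9 mouse genes: the muscarinic receptors Chrm1, Chrm2, Chrm3 and Chrm4, the nicotinic subunits Chrna4, Chrna7 and Chrnb2, and the enzymes Chat and Ache. Members were found by matching the Ensembl identifiers of the deposited gene counts to these symbols. Of the 9, 8 were measured in the nucleus accumbens (NAc) and prefrontal cortex (PFC), among 11569 genes, and 6 in the suprachiasmatic nucleus (SCN), among 12047 genes. Over all regions 12483 genes were measured. Chat was not analysed here in any region, and Chrm1 and Chrm4 were not analysed here in the SCN. Bulk RNA-seq libraries came from punches of frozen brain of C57BL/6J mice taken at ZT6, that is during the light phase, with 26 NAc, 17 PFC and 19 SCN libraries from 26 mice. The mice had circadian rhythm disruption (CRD), made by repeated shifts of the light cycle, or were matched controls, and were killed weeks after the shifts ended. The deposited protocol names CRD in adolescence and in adulthood, whereas the tissue collection in the paper's methods names adolescent CRD and its controls, so the ages at treatment of these libraries are uncertain. The labels give region and mouse number but neither treatment, age at treatment nor sex, so every value below pools these mice and no effect of CRD was tested.

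Acetylcholine acts on G protein-coupled muscarinic receptors and on nicotinic receptors, which are ion channels built of subunits. Chrm1 and Chrm3 couple to Gq and phospholipase C, whereas Chrm2 and Chrm4 couple to Gi/o, lower cyclic AMP and open inwardly rectifying potassium channels. In the striatum, which includes the NAc, acetylcholine comes mainly from sparse local interneurons, while the cortex is supplied largely by the basal forebrain.

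All 9 genes are annotated as protein coding, and positions are on GRCm38. Chrm1 (ENSMUSG00000032773) lies on chromosome 19 from 8663789 to 8683587 and Chrm2 (ENSMUSG00000045613) on chromosome 6 from 36388084 to 36528414, both on the plus strand. Chrm3 (ENSMUSG00000046159) lies on the minus strand of chromosome 13 from 9875486 to 10360847, and Chrm4 (ENSMUSG00000040495) on the plus strand of chromosome 2 from 91927249 to 91928688. Chrm4 is annotated as 1 exon of 1440 bases, the receptor's coding sequence without untranslated exons. The nicotinic subunits all lie on minus strands, Chrna4 (ENSMUSG00000027577) on chromosome 2 from 181018380 to 181043546, Chrna7 (ENSMUSG00000030525) on chromosome 7 from 63098692 to 63212569 and Chrnb2 (ENSMUSG00000027950) on chromosome 3 from 89746195 to 89764632. Ache (ENSMUSG00000023328) lies on the plus strand of chromosome 5 from 137287519 to 137294466 and Chat (ENSMUSG00000021919) on the minus strand of chromosome 14 from 32408203 to 32465989. Of the Chrnb2 exon bases, 1365 of 8380 (16.3%) also lie in Adar exons on the opposite strand. No source used here states whether counting used strand, so how reads there were counted is not known. Chrm1 shares 329 of 6487 exon bases with Gm22820, Chrm2 142 of 6053 with 9330158H04Rik and Ache 98 of 4623 with Gm42456, each on the opposite strand.

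The sequences before the RefSeq start sites of Chrm3 and Chrm4 are shown because these were the members whose NAc and PFC levels did not overlap. They are on GRCm38.p6, written 5′ to 3′ on the gene's strand, with GGGCGG or its reverse complement in capitals. Chrm3 is chr13:10360848-10361053, minus strand, and Chrm4 chr2:91921939-91922188, plus strand, which lies before the single annotated exon used above.
Chrm3: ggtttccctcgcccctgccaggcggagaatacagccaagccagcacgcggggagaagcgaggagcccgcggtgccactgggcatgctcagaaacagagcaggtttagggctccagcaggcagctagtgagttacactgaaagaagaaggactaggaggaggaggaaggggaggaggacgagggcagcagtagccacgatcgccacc
Chrm4: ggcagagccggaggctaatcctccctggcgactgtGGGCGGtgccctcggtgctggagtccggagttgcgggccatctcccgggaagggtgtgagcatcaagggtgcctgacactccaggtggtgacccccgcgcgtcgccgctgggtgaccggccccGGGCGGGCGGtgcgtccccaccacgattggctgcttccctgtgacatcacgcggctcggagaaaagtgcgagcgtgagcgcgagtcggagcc
For Chrm3 the 44 bases nearest the RefSeq start are left out, as they lie within the gene as annotated above. The 206 bases of Chrm3 hold no GGGCGG on either strand, and the 250 bases of Chrm4 hold 3, of which a pair overlap. The G and C content was 62.1% for Chrm3 and 70.0% for Chrm4. Over 32841 RefSeq windows of 250 bases, 32.7% hold GGGCGG and the median G and C content is 52.4%. These letters are a description of the windows and nothing was measured on them here.

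Depth and tissue were examined before the members. Library totals ran from 28879724 to 60009482 counts for NAc, from 31216225 to 50333579 for PFC and from 16496666 to 35389742 for SCN. Mitochondrial and ribosomal RNA genes took 45.4 to 75.2% of counts for NAc, 49.5 to 67.2% for PFC and 31.5 to 66.3% for SCN. All 8 markers of striatal projection neurons, including Ppp1r1b, Drd1 and Drd2, were higher in the NAc against the PFC, and all 7 cortical markers, including Slc17a7, were lower. All 9 SCN markers, including Six6, were measured in the SCN, and 3 of them in the NAc and PFC as well. Since low genes were removed before deposit, being measured is no check of the tissue. Some glial markers differed as well. All 5 oligodendrocyte markers were higher in the NAc, with a median log2 fold change of 2.14. Their summed levels were 473 to 1262 CPM (gene counts scaled to a common library total) there and 106 to 351 CPM in PFC libraries. Of 3 astrocyte markers 2 were lower, and 0 of 3 microglia markers were called in the test described below. Over all genes that test called 23.7% higher in the NAc and 21.7% lower. The part of glia in the members' values was not tested. The label of SCN J1199 was less clear from its genes. It had a summed striatal marker level of 833 CPM against an SCN median of 141, and the lowest summed SCN marker level, 89.2 CPM against a median of 317. SCN J1140 also stood high, with a striatal sum of 372 CPM. Levels in the SCN are therefore given with and without both libraries. SCN J1018 was the lowest of its region in the SCN markers Syt10, Prok2 and Grp. Its Prok2 was 1.064 CPM against a median of 17.36, and its Grp 0.7257 CPM against 4.137. Six6, Lhx1, Nms, Vip and Gpr176 were lowest in J1199, and Avp in J1011. J1018 had the lowest striatal sum of the SCN, 104.6 CPM. This library was kept in every SCN level below, and the tissue of its punch was not tested.

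In the comparison of the NAc with the PFC, Chrm4 and Ache were higher in the NAc, and Chrm3, Chrna4 and Chrna7 were higher in the PFC. Chrm1, Chrm2 and Chrnb2 were not called, Chrnb2 by the fold limit alone. Calls rest on edgeR's quasi-likelihood test and need an adjusted p (Benjamini-Hochberg) below 0.05 together with a difference of 1.2-fold or more. Thus 5 of 8 members were called, where 45.4% of the 11569 genes were called, 23.7% higher in the NAc and 21.7% lower. The median log2 fold change of the 8 members was 0.08, against 0.02 over all genes. Levels are CPM after TMM normalization. In bulk tissue, fewer cells of a type and less RNA per cell cannot be told apart, and this holds for every level below.

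**Figure D1:**
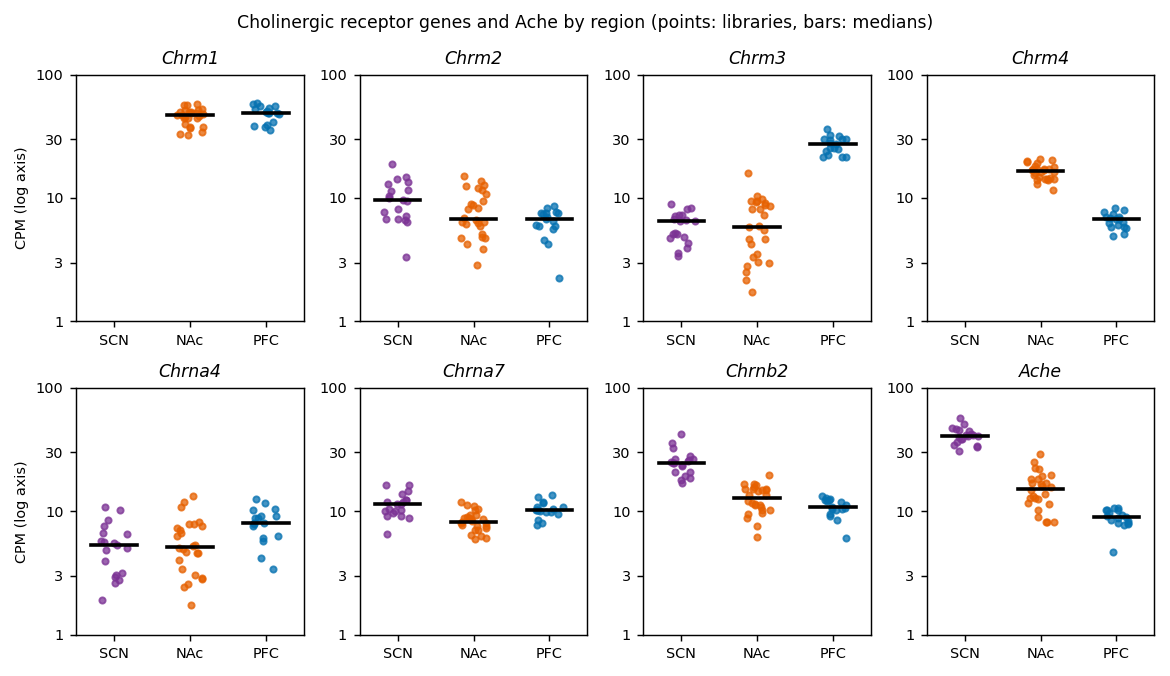
Expression of the 8 measured members in CPM (log axis) in SCN, NAc and PFC; each point is a library and each bar a median. The Chrm3 points of the PFC, from 21.4 CPM, lie above all points of the other regions, and the Ache points of the SCN, from 31.0 CPM, lie above those of the NAc and PFC on this scale; Chrm1 and Chrm4 have no SCN values.

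Chrm3, a Gq-coupled receptor, showed the largest difference of the members. In the PFC it ranged from 21.4 through a median of 27.6 to 36.5 CPM, and in the NAc from 1.72 through 5.86 to 16.0 CPM. No NAc library reached the lowest PFC library. Over all genes, 9.50% had ranges that did not overlap, with the NAc wholly below the PFC in 4.67%. The fitted log2 fold change, NAc over PFC, was -2.07 ± 0.18 (SE), or 4.20-fold higher in the PFC (edgeR adjusted p = 8.8e-14), and the PFC was higher in 17 of 17 mice with both regions. Within single mice the log2 ratio ran from -4.17 in J1019 to -1.22 in J1013.

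Chrm4, the Gi/o-coupled receptor known for its expression in striatal projection neurons of the direct pathway, was higher in every NAc library than in any PFC library. It ranged from 11.6 through 16.6 to 20.8 CPM in the NAc and from 4.90 through 6.74 to 8.28 CPM in the PFC. Over all genes, 4.83% had the NAc range wholly above the PFC range. Chrm4 was 2.495-fold higher in the NAc (log2 1.32 ± 0.069, edgeR adjusted p = 1.2e-21) and higher in 17 of 17 mice. Within mice the log2 ratio lay between 0.78 and 1.80.

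Chrm1, the Gq-coupled receptor of cortical and striatal principal neurons, did not separate the regions. It ranged from 32.4 through 47.0 to 58.2 CPM in the NAc and from 35.6 through 49.2 to 58.3 CPM in the PFC. The log2 fold change was -0.07 ± 0.070 (edgeR adjusted p = 0.36), with a 95% interval of the fold from 0.864 to 1.04. The NAc was higher in 8 mice and the PFC in 9.

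Chrm2, the Gi/o-coupled receptor that also serves as an autoreceptor on cholinergic terminals, had nearly the same median in both regions but a wider spread in the NAc. It ranged from 2.85 through 6.77 to 15.1 CPM in the NAc and from 2.27 through 6.78 to 8.56 CPM in the PFC, and 10 of 26 NAc libraries lay above the highest PFC library. The log2 fold change was 0.31 ± 0.16 (edgeR adjusted p = 0.092), although the PFC was higher in 11 of the 17 mice with both regions. With mouse as a block in those 17 mice the log2 fold change was 0.05 ± 0.19 (adjusted p = 0.85). The within-mouse log2 ratios spread from -1.08 in J1019 to 2.04 in J1160, the mouse whose PFC library was the lowest of its region.

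Chrna4 and Chrnb2, whose subunits form the main high-affinity nicotinic receptor of the brain, gave fold changes of opposite sign, of which the one of Chrna4 was called. Chrna4 ranged from 1.75 through 5.18 to 13.2 CPM in the NAc and from 3.43 through 8.11 to 12.6 CPM in the PFC, with wide overlap. It was 1.38-fold higher in the PFC (log2 -0.47 ± 0.19, edgeR adjusted p = 0.026), in 13 of 17 mice. With mouse as a block the log2 fold change was -0.89 ± 0.21 (adjusted p = 0.001), and without the block in the same mice it was -0.84. The upper range of mouse numbers alone gave -0.18 ± 0.25 (adjusted p = 0.57) and the lower range -0.86 ± 0.24 (adjusted p = 0.0044), and the test of the difference between ranges gave an adjusted p of 0.30.

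Chrnb2 ranged from 6.22 through 12.9 to 19.7 CPM in the NAc and from 6.11 through 10.8 to 13.3 CPM in the PFC. Its log2 fold change of 0.24 ± 0.10 had an edgeR adjusted p of 0.037, but the 1.18-fold difference was under the fold limit of 1.2, so it was not called. The NAc was higher in 10 of 17 mice, and with mouse as a block the log2 fold change was 0.06 ± 0.12 (adjusted p = 0.68). In the upper range of mouse numbers it was called (log2 0.38 ± 0.13, adjusted p = 0.014) and in the lower range it was not (0.06 ± 0.16, adjusted p = 0.78), while the difference between ranges had an adjusted p of 0.36.

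Chrna7, which forms the homomeric calcium-permeable nicotinic receptor, was higher in the PFC of nearly every mouse. It ranged from 5.99 through 8.26 to 11.98 CPM in the NAc and from 7.69 through 10.2 to 13.6 CPM in the PFC. It was 1.23-fold higher in the PFC (log2 -0.30 ± 0.077, edgeR adjusted p = 0.00094) and higher there in 16 of 17 mice. The call was lost in the lower range of mouse numbers (log2 -0.23 ± 0.13, adjusted p = 0.14).

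Ache, the enzyme that splits acetylcholine, was higher in the NAc. It ranged from 8.13 through 15.3 to 29.1 CPM in the NAc and from 4.67 through 8.96 to 10.6 CPM in the PFC, and 21 of 26 NAc libraries lay above the highest PFC library. The difference was 1.75-fold (log2 0.81 ± 0.13, edgeR adjusted p = 5.4e-07), with the NAc higher in 14 of 17 mice. It was smaller in the lower range of mouse numbers (log2 0.54 ± 0.20) than in the upper range (1.01 ± 0.15), a difference that did not pass its test (adjusted p = 0.28). Chat, which makes acetylcholine, was not analysed here, and other genes taken as markers of cholinergic neurons are given below.

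**Figure D2:**
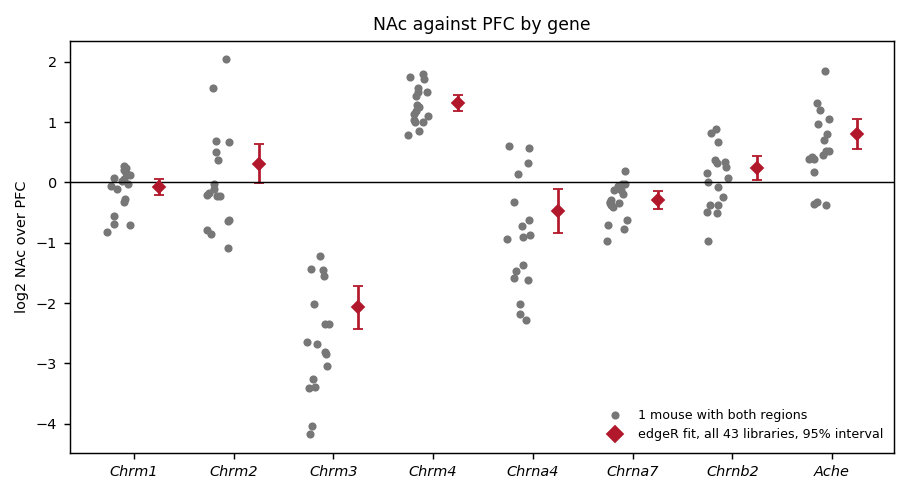
Log2 ratio of NAc over PFC for each member; grey points are the 17 mice with both regions, red diamonds the edgeR fit over all 43 NAc and PFC libraries with bars for 95% intervals. All grey points of Chrm3 lie below 0 and all of Chrm4 above 0, while those of Chrm1, Chrm2 and Chrnb2 lie on both sides.

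The SCN was counted in a separate table, so its levels are set beside the others without a test. Ache was the member that stood out there, from 31.0 through 41.0 to 57.0 CPM. Its SCN median was 2.68 times the NAc median and 4.58 times the PFC median, and no SCN library fell within either range. After joint TMM normalization over the 11133 genes of both tables the ratios were 2.29 and 3.91, and 15 of 19 SCN libraries then lay above the highest NAc library. The lowest SCN library was J1199, and without J1199 and J1140 the range began at 33.2 CPM with the median still 41.0 CPM.

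Chrnb2 was also high in the SCN, from 17.0 through 24.7 to 42.2 CPM. All 19 libraries lay above the PFC range under each normalization, and 15 lay above the NAc range, or 13 after joint normalization. Chrna4, its partner subunit, ranged from 1.91 through 5.30 to 10.8 CPM, within the NAc range on this scale. After joint normalization 1 SCN library of Chrna4 lay below the NAc range (1.70 against 1.81 CPM). Without J1199 and J1140 the lowest, median and highest values of both genes were the same to these digits. The ratio of SCN to NAc medians was 1.92 for Chrnb2 and 1.02 for Chrna4, or 1.62 and 0.867 after joint normalization.

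Chrm3 ranged from 3.41 through 6.54 to 8.99 CPM in the SCN, with a median 1.12 times that of the NAc, or 0.946 times after joint normalization. Without J1199 and J1140 the SCN range was the same but the median was 5.18 CPM, below the 5.86 CPM of the NAc, so the order of these medians depends on both libraries as well as on the scaling. The SCN range of Chrm3 lay wholly below that of the PFC under each normalization. Chrm2 ranged from 3.36 through 9.70 to 19.0 CPM in the SCN. Its highest library was J1140, and without J1140 and J1199 the highest was 14.7 CPM and the median 9.48 CPM. Chrna7 ranged from 6.60 through 11.4 to 16.4 CPM. Its SCN median was 1.12 times that of the PFC, but 0.945 times after joint normalization, so their order depends on the scaling. Without J1199 and J1140 the range was the same and the median 10.5 CPM.

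Ordered by CPM per kilobase of exon, the scale on which genes can be compared, the members formed a different sequence in each region. In the NAc the medians ran from Chrm4 (11.5 CPM per kilobase) and Chrm1 (7.25) through Ache (3.31), Chrna7 (1.83), Chrnb2 (1.54), Chrm2 (1.12) and Chrna4 (1.03) to Chrm3 (0.937). In the PFC they ran from Chrm1 (7.58), Chrm4 (4.68) and Chrm3 (4.41) through Chrna7 (2.26), Ache (1.94), Chrna4 (1.61) and Chrnb2 (1.29) to Chrm2 (1.12). In the SCN they ran from Ache (8.87) through Chrnb2 (2.95), Chrna7 (2.52), Chrm2 (1.60) and Chrna4 (1.05) to Chrm3 (1.05). The ranges of neighbours in these orders overlapped, with 1 exception in the PFC and 1 in the SCN. In the PFC the lowest Chrm3 library (3.42) lay above the highest Chrna7 library (3.03), and in the SCN the lowest Ache library (6.71) lay above the highest Chrnb2 library (5.03). Chrm4 was divided by its coding length alone, so its place is less sure than the others.

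Within the NAc, several members moved with Slc17a7, the vesicular glutamate transporter of cortical projection neurons. Slc17a7 ranged from 4.60 through 64.6 to 340 CPM over the NAc punches, against 543 to 647 CPM in the PFC. Of the 8 members, 6 rose with it at an edgeR adjusted p under 0.05, where 40.4% of all genes were called, 20.0% upward and 20.4% downward. All 6 other cortical markers rose with Slc17a7 and all 8 striatal markers fell. Whether cortical or other neighbouring tissue in the punches had a part in this was not tested.

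Chrm3 had the steepest slope, 0.44 ± 0.038 log2 per doubling of Slc17a7 (edgeR adjusted p = 9.9e-10). Chrna4 followed with 0.36 ± 0.044 (adjusted p = 3.9e-07) and Chrm2 with 0.29 ± 0.042 (adjusted p = 6.6e-06). These 3 slopes were called in the lower and the upper range of mouse numbers as well. Chrm4 (-0.01 ± 0.025, adjusted p = 0.81) and Chrm1 (0.03 ± 0.026, adjusted p = 0.40) did not pass the test. Chrna7, Chrnb2 and Ache had slopes of 0.08, 0.12 and 0.16, which were called over all NAc libraries but in neither range of mouse numbers alone.

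The comparison of regions was also fitted without the NAc libraries high in Slc17a7. Members that rose with Slc17a7 in the NAc fall there by this choice, so their shifts follow from the slopes and are no separate evidence. When the 8 NAc libraries with Slc17a7 above 0.2 of the PFC median were left out, 18 remained, and Chrm3 went from -2.07 to -2.50, Chrna4 from -0.47 to -0.86 and Chrm2 from 0.31 to 0.06 in log2 fold change. Chrm4 (1.34), Chrna7 (-0.41) and Ache (0.67) kept their calls. Of the 8 libraries left out, 5 came from mice with no PFC library, so the fits with mouse as a block did not hold them either.

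**Figure D3:**
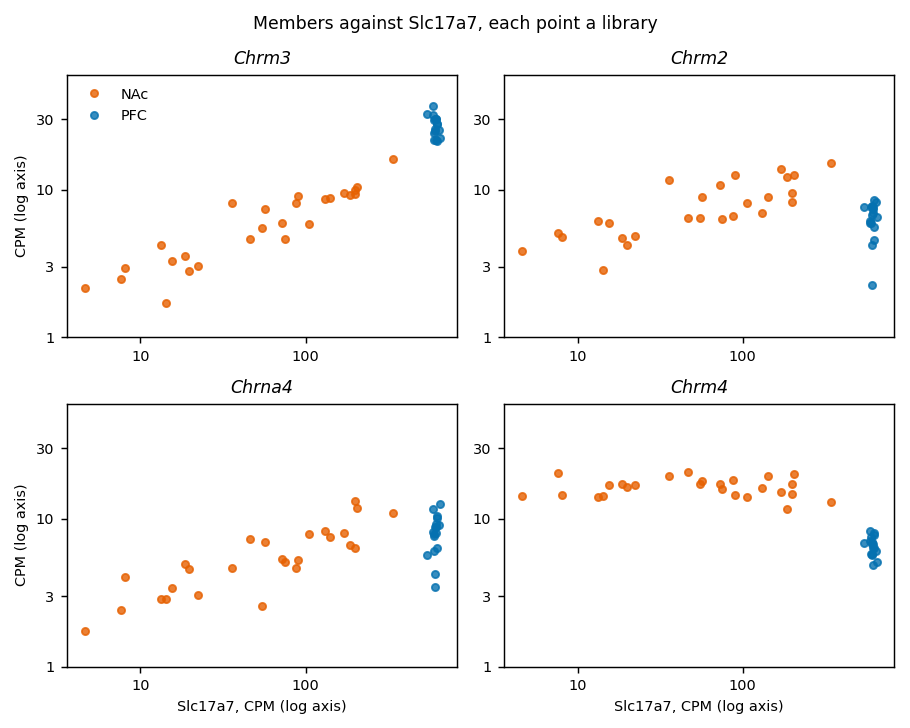
Chrm3, Chrm2, Chrna4 and Chrm4 against Slc17a7, both in CPM on log axes; each point is an NAc (orange) or PFC (blue) library. Over the NAc, Chrm3, Chrm2 and Chrna4 rise with Slc17a7 at 0.44, 0.29 and 0.36 log2 per doubling and Chrm4 does not, and the PFC points sit at 543 to 647 CPM of Slc17a7.

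The share of counts on mitochondrial and ribosomal RNA genes, a measure of library makeup, also differed between libraries at the ends of several members' ranges, though not in every case. The NAc library with the highest share, J965 (75.2%), was among the 3 lowest NAc libraries in 6 of 8 members. The next, J1019 (73.0%), was the lowest in 4, or in 3 when CPM was taken over protein-coding counts. PFC J1160 (67.2%) was the lowest PFC library in Ache, Chrm1, Chrm2 and Chrnb2. PFC J1141, next in share (64.3%), was among the 3 lowest in 4 of 8. At the other end, NAc J1140 (45.4%) was among the 3 highest in 7 of 8 members, and in 5 when CPM was taken over protein-coding counts. In the SCN, J1158 (66.3%) was the lowest in 3 of 6 members on both scales. SCN J1159 (36.6%) was the highest in 4 of 6, among them Ache and Chrnb2, but in 1 over protein-coding counts. SCN J1157, with the lowest share of its region (31.5%), was the highest in 0 and the lowest in 1. Other libraries did not follow this, or did so in part. NAc J1017 (68.8%) and J1014 (66.6%) were among the 3 lowest in 0 of 8 members. PFC J1018, with the lowest share of its region (49.5%), was among the 3 lowest in 2 and among the 3 highest in 3.

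With this share as a term in the fit, a setting added after the data were seen, Chrnb2 was called higher in the NAc (log2 0.32 ± 0.056, edgeR adjusted p = 1.9e-06) and so was Chrm2 (0.38 ± 0.14, adjusted p = 0.016). The 5 calls of the main comparison held. In the fit on Slc17a7 the slopes of Chrnb2 (0.02, adjusted p = 0.65) and Ache (0.03, adjusted p = 0.54) were no longer called with this term, whereas Chrm3 (0.41), Chrna4 (0.26), Chrm2 (0.25) and Chrna7 (0.12) were. Leaving out NAc J1019 and PFC J1160 changed no member's call between the regions. What part RNA quality had in any of these values was not tested.

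**Figure D4:**
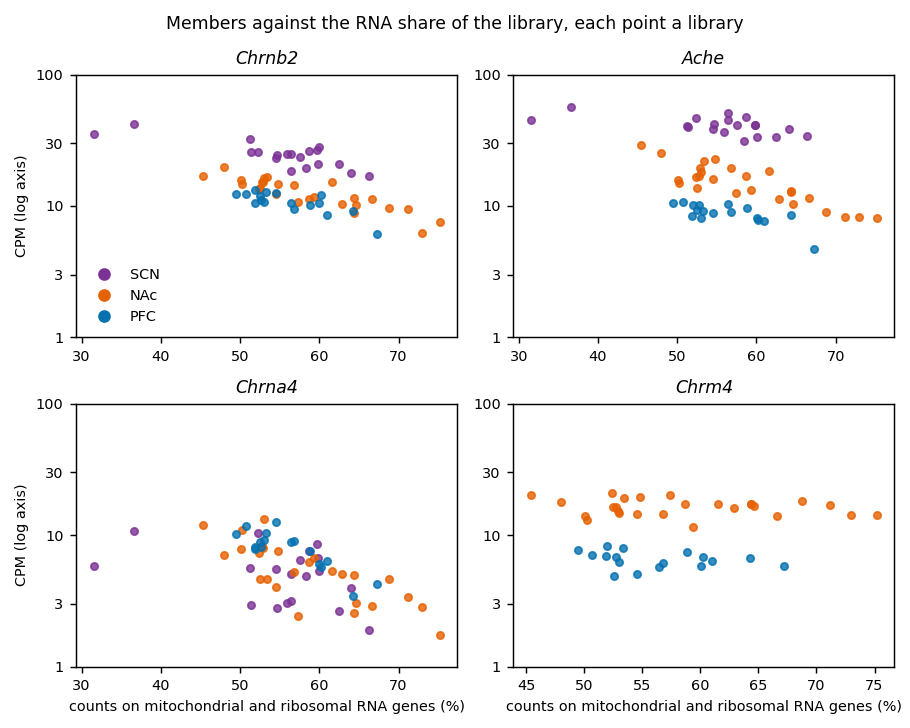
Chrnb2, Ache, Chrna4 and Chrm4 in CPM (log axis) against the percentage of counts on mitochondrial and ribosomal RNA genes; each point is a library, coloured by region. The shares of NAc libraries reach 75.2%, and Ache of the SCN stays above that of the PFC over the whole range.

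As markers of cholinergic neurons 12 genes were listed. Of these, 6 were tested between NAc and PFC and all 6 were higher in the NAc, as 23.7% of all genes were. Slc5a7, the choline transporter that feeds acetylcholine synthesis, ranged from 15.4 through 26.2 to 41.4 CPM in the NAc and from 0.393 through 0.833 to 1.44 CPM in the PFC (log2 4.95, edgeR adjusted p = 1.6e-31). The vesicular transporter relative Slc10a4 (log2 5.75, adjusted p = 3.0e-25) and the transcription factor Isl1 (6.91, adjusted p = 7.6e-28) were near absent from PFC libraries, where their highest raw counts were 17 and 16, so the size of their folds is uncertain. Ecel1 (3.90, adjusted p = 3.2e-20) and Slc17a8 (1.502, adjusted p = 1.6e-13) were also higher in the NAc. Their slopes on Slc17a7 within the NAc ran from -0.07 for Isl1 to 0.12 for Ecel1, with edgeR adjusted p-values from 0.08 to 0.61. The summed level of the 6 genes ran from 37.9 to 88.1 CPM in the NAc and from 2.75 to 5.13 CPM in the PFC. In the SCN 3 of the 12 were measured, with a sum from 29.4 through 42.6 to 89.4 CPM. The median of Ecel1 was higher there (26.9 CPM) than in the NAc (8.63 CPM), and that of Isl1 lower (4.63 against 8.40 CPM). Which cells gave these values was not tested. Slc18a3 and Chrm5 were not analysed here.

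Around the receptors, 51 further genes of 5 pathway lists were counted, of which 32 were tested between the regions. Of these, 9 were higher in the NAc, 8 were lower and 15 were not called, with a median log2 fold change of 0.02. Over all genes 45.4% were called, 23.7% higher in the NAc and 21.7% lower, and the counts of each list below stand beside these shares. The genes named from these lists were called with a log2 size of at least 1, as 8.89% of all genes were. Among the genes of acetylcholine handling, 3 of 7 tested were higher and 1 lower. Among chaperones and Ly6 modulators of nicotinic receptors, 1 of 7 was higher and 2 lower, with Ly6e the only one past a log2 size of 1 (-1.18, edgeR adjusted p = 7.0e-14). Of 14 further muscarinic and nicotinic receptor genes none was tested between NAc and PFC. Of these, Chrna3 was measured in the SCN, where it ranged from 0.387 CPM in J1018 through 6.90 to 14.4 CPM, with a median of 6.96 CPM without J1199 and J1140.

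The Gq and Gi/o arms downstream of the muscarinic receptors were counted in the same way, beside the 45.4% of all genes called. In the Gq arm 4 of 9 genes were higher in the NAc and 2 lower, and the phospholipase C gene Plcb4 was lower by the most (log2 -1.30, edgeR adjusted p = 9.5e-09). In the Gi/o arm 1 of 9 was higher and 3 lower. The one that was higher was Adcy5, the main striatal adenylyl cyclase, with a median of 450 CPM in NAc libraries against 59.0 CPM in PFC libraries (log2 3.004, adjusted p = 8.1e-28). The 3 that were lower were the potassium channel genes Kcnj3 (-1.64, adjusted p = 2.1e-11), Kcnj6 (-1.72, adjusted p = 2.1e-16) and Kcnj9 (-1.67, adjusted p = 1.8e-13). All 3 channel genes also rose with Slc17a7 within the NAc, by 0.39, 0.22 and 0.30 log2 per doubling, and so did Plcb4 (0.35). On this slope 20.0% of all genes were called upward and 20.4% downward. Of the 9 Gi/o genes 3 rose, 3 fell and 3 were not called, and the 9 Gq genes gave the same counts.

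**Figure D5:**
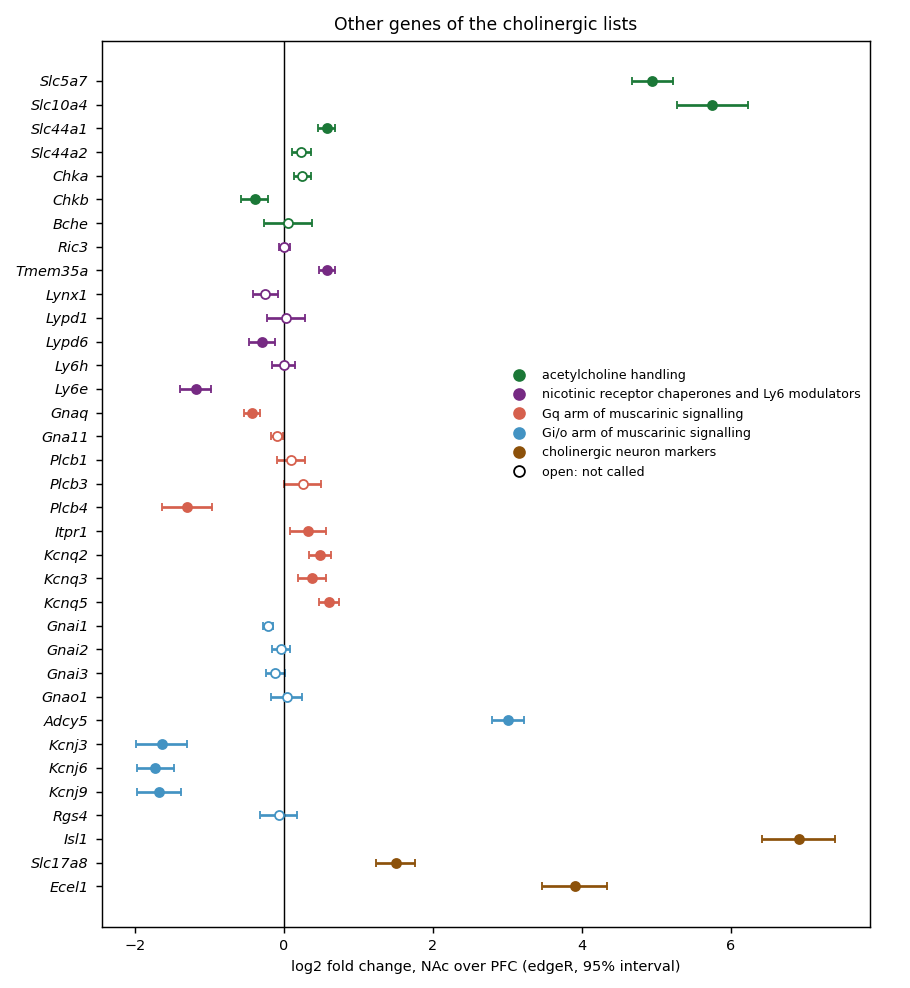
Log2 fold change of NAc over PFC for other tested genes of the cholinergic lists, with bars for 95% intervals; filled points were called and open points were not, and colours mark the list. The cholinergic neuron genes lie at the right, up to 6.91 for Isl1, and Kcnj3, Kcnj6, Kcnj9, Plcb4 and Ly6e at the left.

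Each member was also compared with all other genes of at least 5 CPM on average by Pearson's r of log2 CPM over the libraries of a region, as a description, since libraries share depth and RNA makeup. In the NAc (26 libraries) the most similar gene was Syt13 for Chrm3 (r = 0.97), Ncam1 for Chrnb2 (0.97), Epb41l1 for Chrm1 (0.95), Trim9 for Chrna4 (0.94), Nrip3 for Chrm2 (0.94) and Trim62 for Ache (0.93). No gene reached an r of 0.8 with Chrm4 or Chrna7 there. In the PFC (17 libraries) the potassium channel gene Kcnq5 was most similar to Chrm3 (0.89) and Srgap3 to Chrm1 (0.98). In the SCN (19 libraries) Got1 was most similar to Chrm2 (0.92), Map2k7 to Chrnb2 (0.91) and Fam217b to Chrna4 (0.89), and no gene reached 0.8 with Chrm3.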

How the data were processed

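Tissue punches of the SCN, NAc and PFC were sequenced by the authors after SmartSeq HT library preparation from 10 ng of RNA. Per the submitters' processing notes, FastQC 0.11.7 and HISAT2 were used with GRCm38, and the paper names HTSeq in union mode for counting. The authors deposited raw gene counts, without normalization, with the SCN held apart from the other regions, and removed low genes before deposit. The annotation release they used is not given in the sources used here. Positions and exon lengths came from GENCODE M21, on the same build, and promoter windows from RefSeq on GRCm38.p6.

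Libraries were grouped by the labelled region. No pair of libraries held the same counts. Each library of a region came from another mouse. NAc against PFC was tested in edgeR 4.0.16 (R 4.3.3) (quasi-likelihood test, TMM, filterByExpr, no block), called at an adjusted p under 0.05 and a fold of at least 1.2. A second edgeR fit gave the slope on log2 CPM (prior count 2) of Slc17a7 in the NAc. DESeq2 1.42.0, other filters, scalings and subsets were alternatives. Mouse numbers up to J1021 and from J1140 were treated as possible batches. They held 12 and 14 NAc, 7 and 10 PFC, and 7 and 12 SCN libraries. NAc and PFC libraries of 17 mice are paired by animal, and the correlation of their deviations from the region means ran from -0.449 to 0.272, with a median of 0.006 and 7 over 0.1. On simulated data for 11569 genes with 200 changed 2-fold between NAc and PFC, edgeR recovered 193 with 1 false call. On simulated data for the slope, with 200 genes changed 1.23-fold per doubling, it recovered 199 with 9 false calls.

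The members, lists and tests were chosen with earlier results of these data known. Genes named beside the members are those of the cholinergic lists called with a log2 size of at least 1, Slc5a7, Slc18a3 and Chrm5, the markers Slc17a7, Ppp1r1b, Drd1, Drd2 and Six6, and the most similar genes with an r of at least 0.8. Others were chosen after their values were seen, and some genes under these rules are not reported here. Tables were summarised in Python 3.11.15 (pandas 2.3.3) and drawn with matplotlib 3.10.9.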

Additional observations from a re-analysis of the deposited data

How the results depend on the processing

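Between the NAc and PFC, 98 of 104 member values under an alternative kept their direction and call, among them 8 without a filter on low counts, which removed no gene and so could change nothing, and the number of genes called stayed between 4984 and 5743. Chrm3, Chrm4 and Ache kept their calls under all 13 alternatives, that one included, with log2 fold changes of -2.60 to -1.95, 1.18 to 1.42 and 0.54 to 1.01. In the upper range of mouse numbers Chrm1 turned to 0.049, Chrna4 lost its call at -0.18 and Chrnb2 gained one at 0.38, and in the lower range Chrna7 lost its call at -0.23. The share of mitochondrial and ribosomal RNA counts as a term gave calls for Chrm2 at 0.38 and Chrnb2 at 0.32. The cause was not tested.

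With mouse as a replicate block, over the 17 mice that gave both tissues, the fit called 5681 genes, against 5743 in the same mice without the block, and no member changed its call. Of list genes, in these mice Lynx1 gained a call with the block (-0.34) and without it (-0.34), and Lypd6 (-0.18 and -0.18) and Itpr1 (0.26 and 0.29) lost theirs both ways, while Chka gained one without the block alone (0.26). With the block, the list genes that turned sign without a call were Ric3 (-0.031), Lypd1 (-0.26), Plcb1 (-0.041), Gnao1 (-0.12) and Rgs4 (0.019), and in the same mice without it they were Ric3 (-0.026), Lypd1 (-0.17), Plcb1 (-0.032), Gnao1 (-0.099) and Rgs4 (0.084).

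None of the other list genes that turned sign was called either. In the lower range these were Plcb1 (-0.034), Gnao1 (-0.17) and Rgs4 (0.036). In the upper range they were Bche (-0.015), Ric3 (-0.0070), Ly6h (0.074), Gna11 (0.0029) and Gnai2 (0.0069). Without the NAc libraries high in Slc17a7 they were Ric3 (-0.012), Lypd1 (-0.14), Gnao1 (-0.0043) and Rgs4 (0.088). Ly6h, at about 0 in the main comparison, turned to 0.0010 with the stricter filter, 0.0009 with the range as a term, 0.013 without mitochondrial and ribosomal RNA genes, 0.0008 without NAc J1019 and PFC J1160, and 0.027 with the RNA share as a term.

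For the slope on Slc17a7, 4673 genes were called, against 1353 in the lower range, 1703 in the upper range and 1739 with the RNA share as a term. Fewer libraries entered the fits within ranges. Chrna7, Chrnb2 and Ache lost their calls in the lower range (0.085, 0.14 and 0.15) and in the upper range (0.088, 0.091 and 0.15). With the RNA share as a term Chrnb2 (0.021) and Ache (0.035) lost theirs, and Chrnb2 (0.11) did so when the 2 libraries most distant in Slc17a7 were dropped. Chrm4 turned to 0.028 in the lower range, and Chrm1 to -0.027 in the upper range and -0.037 with the RNA share as a term, none of them called. Chrm2, Chrm3 and Chrna4 kept their calls under all 9 alternatives.

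CPM over protein-coding counts multiplied the median levels of a region by about 2.49 to 2.60 by its construction, so it does not bear on their stability. The alternatives listed for Chat gave no value. Leaving out NAc J1019 and PFC J1160, and the RNA share as a term, were chosen after seeing the data. Single values rested on few counts, for Chrna4 on as few as 41 in the NAc and 42 in the SCN, and for Chrm3 on 44 in the NAc.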

Other observations

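The modulators of nicotinic receptors and the other cholinesterase had SCN levels not described above. They were picked after their values were seen and are given without a test. Ly6h, a modulator that binds nicotinic receptors, ranged from 73.1 through 105 to 122 CPM in the SCN (n = 19), against 24.2 through 35.2 to 62.6 CPM in the NAc and 33.4 through 36.7 to 41.5 CPM in the PFC. The SCN range lay above both others on this scale, but after joint normalization its lowest library (65.0 CPM) fell just under the highest NAc library (65.6 CPM). Tmem35a, the chaperone of the Chrna7 receptor, had similar medians in the SCN (16.1 CPM) and NAc (17.1 CPM), with a PFC median of 11.3 CPM. Without SCN J1199 and J1140 the SCN median of Ly6h was 105 CPM and that of Tmem35a 15.95 CPM.

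Bche, the other cholinesterase, had a single high SCN library, J1199 at 16.1 CPM, where the next highest had 7.22 CPM. That library also held the lowest Ache of its region and the highest striatal marker sum. Bche itself reached at most 6.10 CPM in the NAc (median 3.84 CPM) and 10.9 CPM in the PFC (median 2.91 CPM). The cause of the high value was not tested.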
